A study of Mus musculus with 11 samples.

Results

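Arg1, Nos2 and Retnla encode arginase 1, inducible nitric oxide synthase and resistin-like alpha, and they were found by symbol, whatever its case (ARG1, NOS2, RETNLA), as 3 of the 248 genes of a NanoString mouse inflammation panel. All 3 had a value in all 11 corneal samples. Arginase 1 splits arginine into ornithine and urea, while inducible nitric oxide synthase turns the same amino acid into nitric oxide and citrulline, so that both enzymes draw on one substrate. In macrophages, interleukin 4 and interleukin 13 induce Arg1 and Retnla, which are therefore used as marks of alternative activation, and interferon gamma, TNF and Toll-like receptor ligands induce Nos2, a mark of classical activation. None of these genes belongs to macrophages alone: arginase 1 is abundant in hepatocytes and is also made by epidermal keratinocytes, and Retnla is secreted by epithelia as well as by macrophages. The comparisons ask whether eye drops of 2 agonists of the neurotrophin receptors TrkA, TrkB and TrkC altered these genes in corneas under desiccating stress, and whether Arg1 followed the macrophage genes of the panel.

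The samples were total RNA of the cornea (labelled cornea epithelia) from female C57BL/6 mice after 5 days of desiccating stress, which combined a drafty room of low humidity with scopolamine in the drinking water to stop tear secretion. All mice, controls included, went through this stress, and no unstressed cornea was analysed here. During it they received eye drops 2 times a day of vehicle (3 samples), of pan at 10 µM (4 samples), an agonist of all Trk receptors, or of C1 at 10 µM (4 samples), a partial agonist selective for TrkC. A single label gives an age of 3 months for all samples, whereas a second label gives 22 to 24 months to every C1 sample and to pan replicate 4, and 2 to 3 months to the remaining pan samples and to vehicle. The study calls the samples biological replicates that passed quality control, and whether each held several animals is not given for this assay.

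Each value was deposited as the log2 of a normalized count, that is, the number of times the gene's probe was counted, divided by a factor from housekeeping genes. Total probe counts over the panel were 91955 to 133098 with vehicle, 64156 to 646446 with pan and 165828 to 525997 with C1. The value of 1 count ran from 0.315 normalized counts (pan replicate 4) to 3.25 (pan replicate 1). For C1 against vehicle, treatment, the second age label and a higher total cannot be told apart, and the study's methods give an age of some weeks for all its mice, which goes against the older value of that label. The panel has no keratin gene, so the epithelial label could not be checked. As a guide to the background, 9 genes mainly expressed outside the cornea were used, called genes of other organs below. They include the liver complement genes C8a, C8b and C9, and also Gngt1, a transducin subunit of retinal rods and so a gene of the eye. Their means were 3.86 to 14.9 normalized counts per sample. The highest of them reached 5.80 to 36.9, and the 36.9 was Gngt1 in vehicle replicate 2. These 9 genes were picked after their values had been seen.

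The 3 genes lay at very different levels. Arg1 ranked between 9 and 16 of the 248 genes, with 1.33 to 2.00% of all counts of a sample, and stood 238 to 1010 times above the mean of the genes of other organs. Nos2 ranked between 136 and 164 and Retnla between 111 and 178. Nos2 was above the highest gene of other organs in 8 of the 11 samples, and Retnla was in 8, with the same count as that gene in vehicle replicate 2 and pan replicate 2. In both of these samples that gene was Gngt1. In vehicle replicate 2, Gngt1 was also the only gene of other organs above Nos2. A probe is counted once per transcript whatever the transcript's length, but probes can differ in capture efficiency, so ratios between genes are ratios of probe counts.

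**Figure D1:**
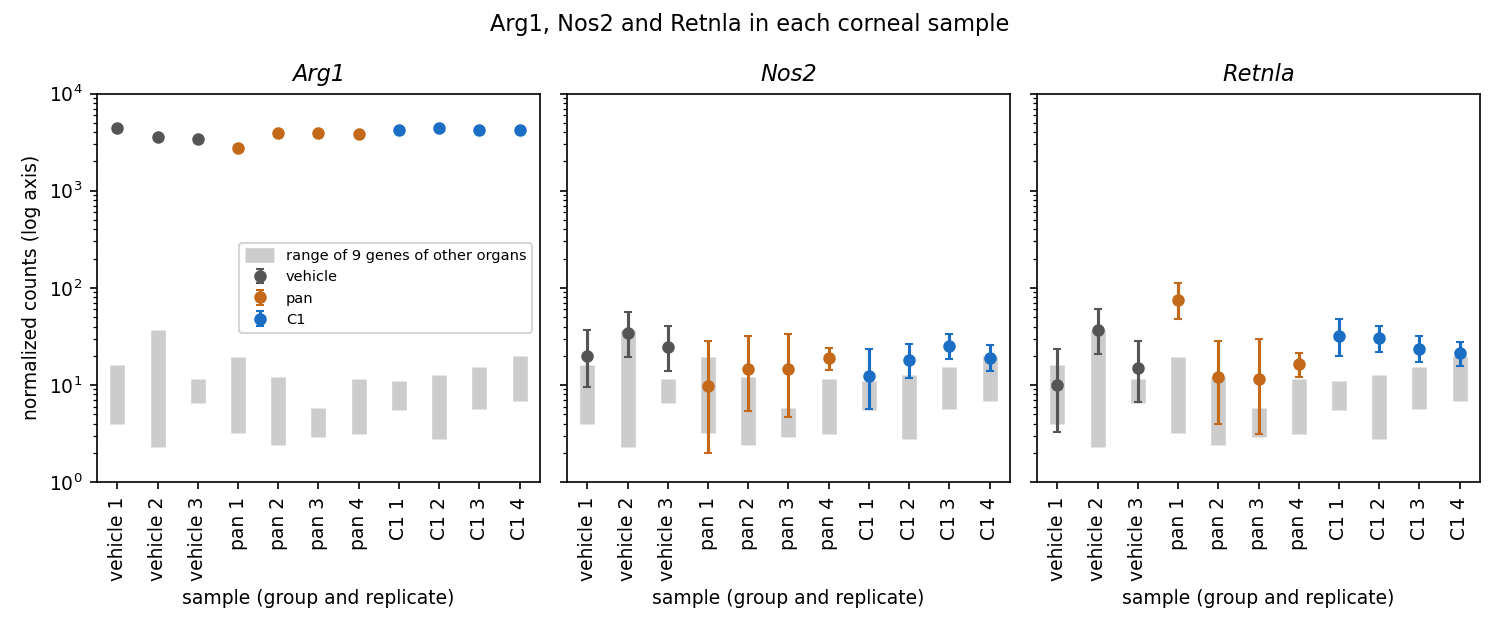
Normalized counts (log axis) of Arg1, Nos2 and Retnla in each of the 11 samples, with 95% Poisson intervals of the probe counts as bars and the range of the 9 genes of other organs as grey bands. Arg1 lies between 2772 and 4392 in every sample, whereas Nos2 and Retnla lie near or within the grey bands in several samples and Retnla reaches 74.7 in pan replicate 1.

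Arg1 (gene ID 11846) had similar mean levels in the 3 groups. Its normalized counts were 4392, 3540 and 3414 in vehicle replicates 1 to 3. In pan replicates 1 to 4 they were 2772, 3953, 3898 and 3856. In C1 replicates 1 to 4 they were 4208, 4365, 4172 and 4186. The lowest sample was pan replicate 1, which also has the lowest total count, and the highest was vehicle replicate 1, so that the range of the vehicle samples overlapped those of both treatments. With C1, the 4 samples were packed closely, all above the 4 pan samples. Mean levels with vehicle, pan and C1 were 3782 ± 532 (SD, n = 3), 3620 ± 567 (SD, n = 4) and 4233 ± 89.4 (SD, n = 4), which are coefficients of variation of 14.1%, 15.7% and 2.11%. At least 854 counts stood behind each of these values.

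Neither treatment changed Arg1 past the threshold, an adjusted p of 0.05 from limma over the 248 genes. Against vehicle the log2 fold change was -0.07 with pan (standard error 0.24, 95% interval -0.61 to 0.48, limma adjusted p = 0.942) and 0.17 with C1 (standard error 0.13, 95% interval -0.15 to 0.49, limma adjusted p = 0.733). These comparisons share the 3 vehicle samples. Under the same test 5 genes (2.02%) passed for pan and 0 (0%) for C1, and before adjustment a p under 0.05 was reached by 31 (12.5%) and 26 (10.5%) genes. The pan difference turned to 0.05 without pan replicate 1 and to 0.04 without vehicle replicate 1, so its sign rests on single samples.

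Both compounds were given at the same dose for the same time, which makes 1 pair of compounds to compare. Pan replicates 1 to 3, however, differ from every C1 sample in the second age label and have lower total counts. For these samples, treatment, age label and total cannot be told apart. Arg1 was 1.17 times as high with C1 as with pan, a log2 difference of 0.24 (standard error 0.18, 95% interval -0.18 to 0.66, limma adjusted p = 0.567). All 4 C1 samples exceeded all 4 pan samples, which gave the smallest p that the two-sided exact permutation test can give with these groups (p = 0.0286). Of the 248 genes, 19 (7.66%) were higher in every C1 sample than in every pan sample, and 1 gene (0.403%) passed the limma threshold, with 38 (15.3%) at an unadjusted p under 0.05. Pan replicate 4 carries the same ages as C1 on both labels and has the highest total count of all samples. It had 3856 normalized counts of Arg1 and was also below the 4 C1 samples. Without pan replicate 1 the log2 difference was 0.12.

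Nos2 was low in all samples and lowest with pan. The row for Nos2 carries the gene ID and description of another gene, 378430 and nanos homolog 2, whereas RefSeq gives inducible nitric oxide synthase the ID 18126. The symbol NOS2 is an alias of the former, and the panel list of the study pairs the probe with a transcript of the synthase, so the values are described as Nos2. Normalized counts were 20.02, 34.6 and 24.7 in vehicle replicates 1 to 3. In pan replicates 1 to 4 they were 9.74, 14.6, 14.5 and 18.9. In C1 replicates 1 to 4 they were 12.4, 18.2, 25.3 and 19.0. All 4 pan samples were below the lowest vehicle sample, 3 of 4 C1 samples were, and the pan and C1 samples overlapped.

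The means of Nos2 were 26.4 ± 7.43 (SD, n = 3), 14.4 ± 3.74 (SD, n = 4) and 18.7 ± 5.28 (SD, n = 4) normalized counts with vehicle, pan and C1. The vehicle mean was 1.83 times the pan mean, a log2 fold change of -0.87 for pan (standard error 0.31, 95% interval -1.58 to -0.17). This did not pass the threshold (limma adjusted p = 0.245), and the exact permutation test gave its smallest possible value for 3 against 4 samples (two-sided, p = 0.0571). Of the 248 genes, 21 (8.47%) were lower in every pan sample than in every vehicle sample. For C1 against vehicle the log2 fold change was -0.50 (standard error 0.29, 95% interval -1.19 to 0.18, limma adjusted p = 0.567), and for C1 against pan it was 0.37 (standard error 0.28, 95% interval -0.27 to 1.01, limma adjusted p = 0.567).

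The counts behind Nos2 were few: 10, 15 and 15 with vehicle, 3, 6, 5 and 60 with pan, and 9, 26, 49 and 44 with C1. The genes of other organs were lower with pan as well, with a median log2 fold change against vehicle of -0.71 over the 9 genes, where the median of all 248 genes was -0.20. Their part in the lower Nos2 value was not tested beyond subtracting their mean in each sample, which gave -1.31 with a wide 95% interval of -3.59 to 0.97. Settings that damp low values gave smaller differences, -0.57 with 10 normalized counts added and -0.36 with values under 20 set to 20 (limma adjusted p = 0.281 and 0.884). Without pan replicate 4, the one pan sample with the second age label and the highest total, the log2 fold change of Nos2 was -1.02 (limma adjusted p = 0.198).

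Retnla (gene ID 57262) varied more between samples of 1 group than between groups. Its normalized counts were 10.0, 36.9 and 14.8 in vehicle replicates 1 to 3. In pan replicates 1 to 4 they were 74.7, 12.2, 11.6 and 16.4. In C1 replicates 1 to 4 they were 31.6, 30.2, 23.7 and 21.2. Pan replicate 1 was the highest of the 11 samples and the other 3 pan samples were below all C1 samples, while the vehicle samples spanned the C1 range. Mean levels with vehicle, pan and C1 were 20.6 ± 14.3 (SD, n = 3), 28.7 ± 30.7 (SD, n = 4) and 26.7 ± 5.02 (SD, n = 4), with coefficients of variation of 69.7%, 107% and 18.8%.

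None of the comparisons of Retnla passed the threshold. The log2 fold change was 0.21 for pan against vehicle (standard error 0.73, 95% interval -1.47 to 1.89, limma adjusted p = 0.942) and 0.58 for C1 against vehicle (standard error 0.43, 95% interval -0.45 to 1.61, limma adjusted p = 0.720). For C1 against pan it was 0.37 (standard error 0.56, 95% interval -0.89 to 1.63, limma adjusted p = 0.735), although the ratio of the mean normalized counts was 0.929, since pan replicate 1 weighs more on the linear scale. Without pan replicate 1 the C1 to pan difference was 0.99 (standard error 0.23, limma adjusted p = 0.184) and the pan to vehicle difference turned to -0.41 (limma adjusted p = 0.888).

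**Figure D2:**
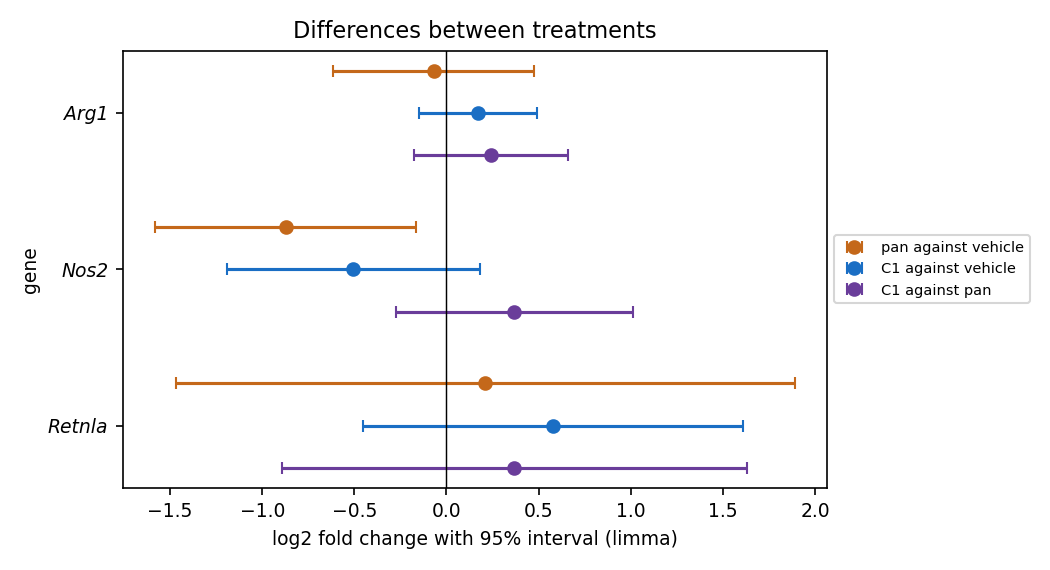
Log2 fold changes of Arg1, Nos2 and Retnla from limma with 95% intervals for pan against vehicle, C1 against vehicle and C1 against pan. The intervals of Arg1 and Retnla include 0 in each comparison, and that of Nos2 lies below 0 for pan against vehicle, where its adjusted p was 0.245 in limma.

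The high Retnla value of pan replicate 1 rests on 23 counts, whose 95% Poisson interval is 47.3 to 112 normalized counts and covers counting error only. The intervals of the other pan samples, 3.96 to 28.5, 3.16 to 29.7 and 12.2 to 21.5, did not reach it. Retnla was 5.58 times the mean of the other pan samples there, the largest such ratio of the 248 genes, ahead of Myl2 with 3.33 and Nox1 with 3.04. Of the other genes of alternative activation, Mrc1, the mannose receptor, was 1.67 times the mean of the other pan samples, and the eosinophil chemoattractant Ccl24 was 1.23 times that mean on 2 counts. Chi3l3, a chitinase-like protein often found together with Retnla, was at 0.928 times that mean on 2 counts. Ccl22, Ccl17, Alox15, Cd163 and Trem2 were also below it, on 1, 2, 240, 4 and 1 counts. Ratios on 1 to 4 counts are coarsely measured, and whether these genes rose with Retnla was not tested.

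**Figure D3:**
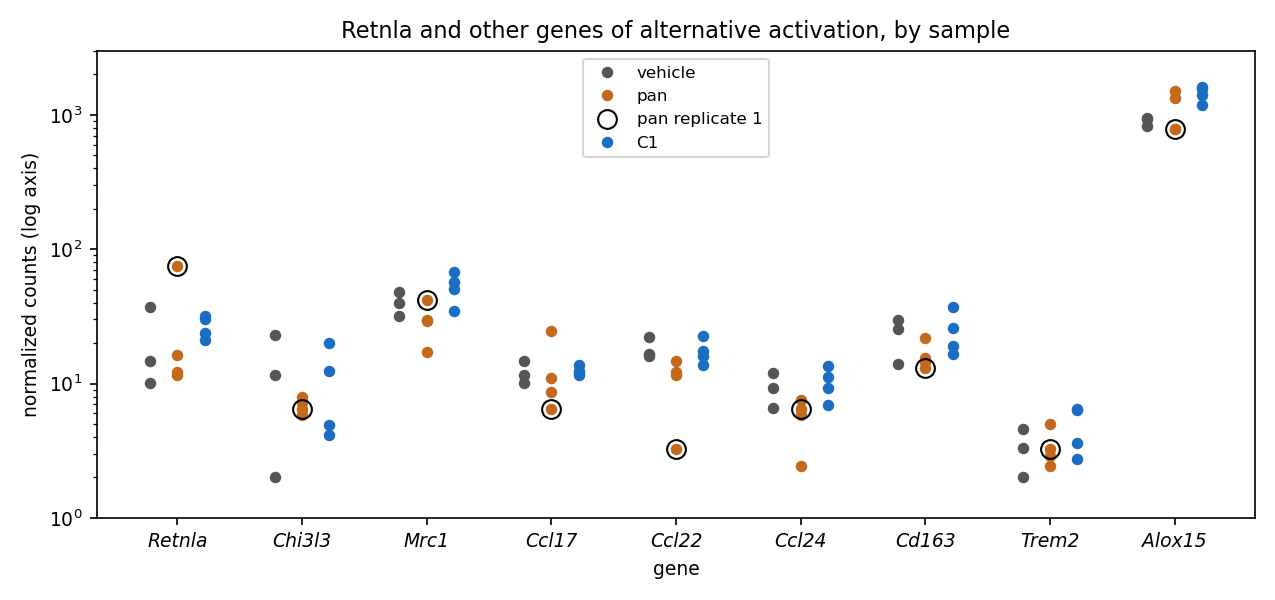
Normalized counts (log axis) of Retnla and 8 other genes of alternative activation by group, each point a sample and pan replicate 1 ringed. In pan replicate 1 Retnla stands above the other samples at 74.7 normalized counts (23 probe counts). Chi3l3 lies among the other pan samples there at 6.49, which rests on 2 probe counts.

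Arg1 was set against 8 macrophage genes of the panel to ask about its cell source. These were Tyrobp, an adaptor of myeloid receptors, the complement genes C1qa and C1qb, the integrin Itgb2, the scavenger receptors Mrc1 and Cd163, the lipid receptor Trem2 and the complement receptor C3ar1. Their summed normalized counts were 222, 307 and 357 with vehicle, 204, 161, 229 and 227 with pan, and 329, 353, 262 and 369 with C1. The sums of all 4 C1 samples were above those of the pan samples, and vehicle lay between and overlapped both. At most 3 counts stood behind 3 of the 24 values of these genes with vehicle, 4 of 32 with pan and 1 of 32 with C1, and Trem2 had 1 or 2 counts in 7 samples. The deposited log2 values cannot hold a 0.

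Arg1 exceeded this sum 9.57- to 24.5-fold in the 11 samples, and it exceeded the highest single macrophage gene 41.5- to 116-fold. Against the sum of 18 markers of macrophages, neutrophils, T cells, MHC class II cells and eosinophils, it was 5.80 to 13.1 times as high. The macrophage sum varied 2.29-fold between its lowest and its highest sample and Arg1 1.58-fold. By group the ratio of Arg1 to the macrophage sum was 9.57 to 19.8 with vehicle, 13.6 to 24.5 with pan and 11.3 to 15.9 with C1, ranges that overlap. In bulk samples, fewer cells of a type and less RNA per cell cannot be told apart, and no cell was measured on its own.

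**Figure D4:**
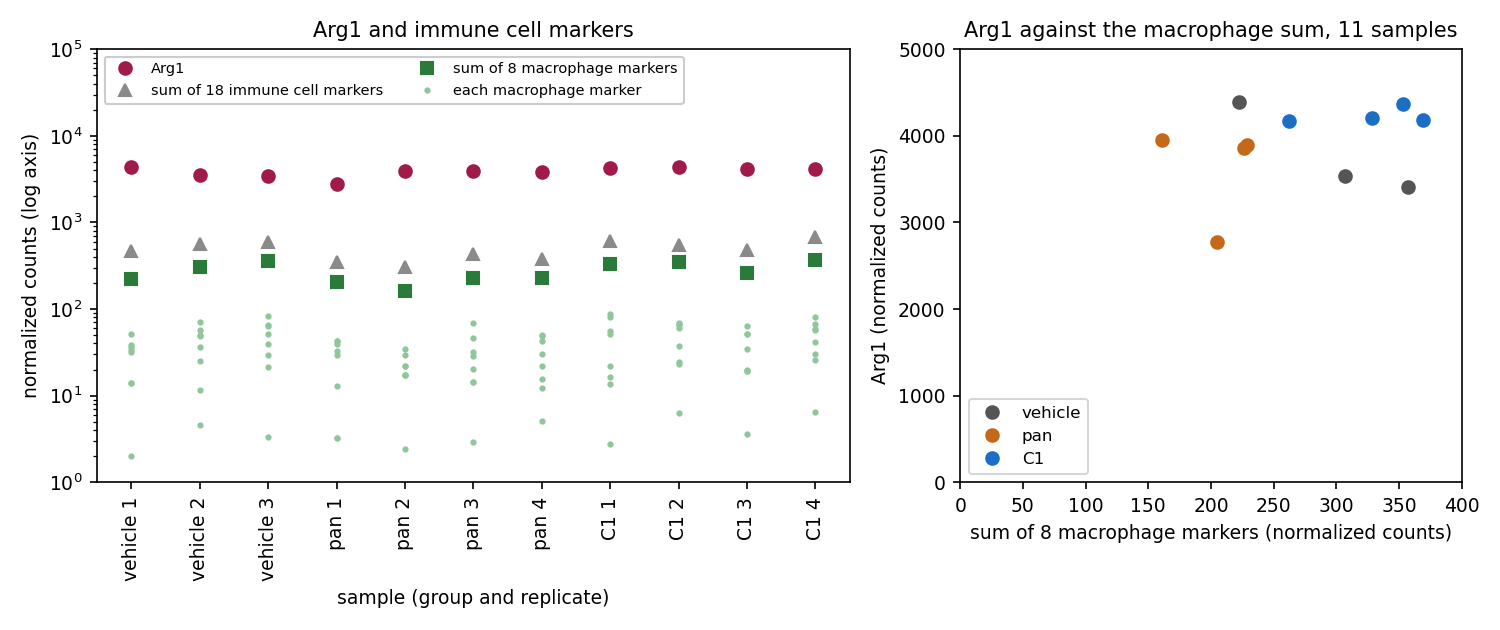
Left, normalized counts (log axis) of Arg1, the sum of 18 immune cell markers, the sum of 8 macrophage markers and each macrophage marker in the 11 samples. Right, Arg1 against the macrophage sum on linear axes, where vehicle replicate 1 pairs 4392 normalized counts of Arg1 with a sum of 222 and vehicle replicate 3 pairs 3414 with a sum of 357.

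Across the 11 samples the log2 levels of Arg1 and of the macrophage sum were weakly related, with a Pearson r of 0.219 (permutation p = 0.536, adjusted p = 0.643) and a Spearman rho of 0.173 (permutation p = 0.616, adjusted p = 0.740). Without pan replicate 2 and C1 replicate 4, the 2 samples farthest from the median sum, r was 0.265 (exact permutation p = 0.521). With each group centred on its mean it turned to -0.365 (exact permutation within groups, p = 0.360), and without pan replicate 1 it was -0.07. The groups hold too few samples for an r of their own. Values were adjusted over 6 relations, those of the 3 genes with the macrophage sum and with the total count.

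Nos2 and Retnla did not follow the macrophage sum past the threshold either. Their Pearson r values were 0.407 (permutation p = 0.214, adjusted p = 0.642) and 0.225 (permutation p = 0.507, adjusted p = 0.643), with Spearman rho of 0.345 (permutation p = 0.300, adjusted p = 0.711) and 0.218 (permutation p = 0.521, adjusted p = 0.740). Without the 2 farthest samples r was 0.394 and 0.0714, and with each group centred on its mean it was 0.0703 and 0.212. The r of Retnla was 0.645 without pan replicate 1 (permutation p = 0.0458, adjusted p = 0.275). With the log2 total count, r was 0.520 for Arg1 (permutation p = 0.0928, adjusted p = 0.557), 0.273 for Nos2 (permutation p = 0.416, adjusted p = 0.643) and -0.11 for Retnla (permutation p = 0.752, adjusted p = 0.752), with Spearman rho of 0.409, 0.309 and -0.05. With each group centred on its mean, the r with the total count was 0.321, 0.607 and -0.362. Without pan replicate 1 it was 0.34, 0.0389 and 0.27. For Arg1 it was 0.614 without vehicle replicate 1 (permutation p = 0.0468, adjusted p = 0.281).

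Taken gene by gene, the r of Arg1 was highest with Itgb2, 0.741, a gene with 1 to 70 counts, and -0.32 with C3ar1, and it was between 0.0358 and 0.418 with the other 6 macrophage genes. The value of Itgb2 that rests on 1 count is that of pan replicate 1, where Arg1 was lowest too. An r of Itgb2 without that sample was not computed. The genes most like Arg1 over the 11 samples, of 130 whose mean log2 value was 5 or more, were Irf1, a transcription factor induced by interferons (r = 0.898), Oasl1, an interferon-induced antiviral gene (r = 0.856), and Tlr5, the receptor of flagellin (r = 0.824). Like Arg1, all 3 were lowest in pan replicate 1, with 5054, 1558 and 282 normalized counts. Without that sample their r was 0.686, 0.802 and 0.581, and the highest were Oasl1, Rps6ka5 at 0.741 and Areg, the growth factor amphiregulin, at 0.734. These correlations are descriptions over samples that share a normalization, and most samples differ in depth.

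The macrophage genes themselves did not pass the test in any comparison, with 0 of 8 called. Their median log2 fold change was -0.48 for pan against vehicle, 0.32 for C1 against vehicle and 0.72 for C1 against pan, where the medians of all 248 genes were -0.20, -0.02 and 0.23 and those of the 9 genes of other organs -0.71, -0.19 and 0.77. For the 4 of the 8 macrophage genes with a mean log2 value under 5, the shift of low genes and that of macrophage genes cannot be told apart. The other 4, Tyrobp, C1qa, C1qb and Mrc1, gave -0.39, -0.53, -0.51 and -0.49 for pan against vehicle. For C1 against pan they gave 0.66, 0.77, 0.96 and 0.86. Medians of the 131 genes with a mean log2 of 5 or more were -0.07 and 0.13. With pan, these 4 genes had mean log2 values of 4.81 to 5.37, close to that limit. Whether they shifted more than genes of their own level was not tested. C3ar1 differed most from vehicle, with 22.1 ± 5.14 normalized counts (SD, n = 4) with pan against 50.3 ± 14.1 (SD, n = 3) with vehicle. The log2 fold change of C3ar1 was -1.18 (standard error 0.29, limma adjusted p = 0.0955). With C1 it was -0.95 against vehicle (limma adjusted p = 0.418). For C1 against pan all 8 genes were above 0, as were 181 of the 248 genes and all 9 genes of other organs, from 0.22 for C3ar1 to 0.96 for C1qb (limma adjusted p = 0.681 and 0.256). Of the 10 markers of other immune cells, 0 were called in the 3 comparisons. The neutrophil receptors Cxcr1 and Cxcr2 summed to 5.80 to 27.7 normalized counts per sample and the T cell genes Cd4, Cd40lg and Fasl to 13.0 to 30.7, and with pan 6 of the 8 neutrophil values and 8 of the 12 T cell values rested on at most 3 counts.

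The other 8 genes of alternative activation, beside Arg1 and Retnla, gave 0 calls in the 3 comparisons, with median log2 fold changes of -0.36, 0.12 and 0.51. Of all 248 genes, 5 (2.02%), 0 (0%) and 1 (0.403%) were called, with medians of -0.20, -0.02 and 0.23. Those of the 9 genes of other organs were -0.71, -0.19 and 0.77. These panel values also stand beside the lists of the next paragraphs. Mrc1, Cd163 and Trem2 are among the macrophage genes too, so these lists share genes. Against vehicle, the largest difference of a gene whose mean log2 value was 5 or more was that of Alox15, a lipoxygenase that interleukin 4 induces, with C1. It had 1441 ± 196 normalized counts (SD, n = 4) with C1 against 897 ± 65.8 (SD, n = 3) with vehicle. Its lowest value over the samples, 779, was above the highest sum of the 8 macrophage genes, 369. The cell source of Alox15 was not tested. The log2 fold change of Alox15 was 0.68 (standard error 0.15, limma adjusted p = 0.211), and all C1 samples were above the vehicle samples, as were 15 (6.05%) of the 248 genes. Mrc1 gave -0.49 for pan against vehicle and 0.86 for C1 against pan (limma adjusted p = 0.577 and 0.272).

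Of the 10 genes of classical activation, which include Il12b, Cxcl9, Il6, Tnf and Ptgs2, 0 were called in the 3 comparisons, and their medians were -9.5e-05, 0.36 and 0.06. Tnf, a cytokine that induces Nos2 and the 1 gene of this list whose mean log2 value was 5 or more, had 49.2 ± 16.1 (SD, n = 3), 144 ± 116 (SD, n = 4) and 141 ± 109 (SD, n = 4) normalized counts with vehicle, pan and C1. Its log2 fold changes against vehicle were 1.17 and 1.30 (limma adjusted p = 0.542 and 0.452), and 0.13 for C1 against pan (limma adjusted p = 0.933).

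Among 8 genes that act upstream of Arg1 and Retnla, the cytokines Il4 and Il13 were near the floor of the assay, at 1.57 to 6.01 and 0.701 to 13.2 normalized counts, and 0 of the 8 genes were called. The transcription factors were well measured: Hif1a, which responds to low oxygen, had 4198 ± 363 (SD, n = 3), 4293 ± 477 (SD, n = 4) and 4321 ± 242 (SD, n = 4) normalized counts with vehicle, pan and C1. Of the genes at this level (mean log2 value of 5 or more), the largest differences were those of Creb1 with pan, 0.32, Cebpb with C1, 0.33, and Tgfb1 between C1 and pan, -0.26 (limma adjusted p = 0.594, 0.452 and 0.564). The medians were 0.03, 0.09 and 0.01.

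Among 10 genes that act upstream of Nos2, 1 was called, for pan against vehicle, where 5 (2.02%) of the 248 genes were called. Ifng, encoding interferon gamma, the classical inducer of Nos2, was called lower with pan at a level near the background. It had 12.0, 18.4 and 16.4 normalized counts with vehicle and 3.25, 2.44, 2.90 and 3.15 with pan, a log2 fold change of -2.40 (standard error 0.24, limma adjusted p = 0.00246). All pan samples were below all vehicle samples, as for 21 (8.47%) of the 248 genes. These Ifng values rest on 6, 8 and 10 counts with vehicle and on 1, 1, 1 and 10 with pan. Of the pan samples, 3 are at or under the limit of 3 counts that a count of 0 allows. The pan values of Ifng were below the mean of the 9 genes of other organs in all 4 samples, and with vehicle it exceeded the highest of them in 1 of 3. Mbl2, a liver lectin among those 9 genes, had the same pan values as Ifng and was also called lower with pan (log2 fold change -1.59, standard error 0.28, limma adjusted p = 0.0305). With values under 20 set to 20, Ifng is at the floor in all samples and no difference is left. With C1, Ifng was at 4.13, 5.61, 3.61 and 9.50 normalized counts, all below vehicle, as were 10 (4.03%) of the 248 genes, with a log2 fold change of -1.53 (limma adjusted p = 0.211). The other genes, among them Tnf, Irf1 and Rela, did not pass the test in any comparison. Of the genes at a mean log2 value of 5 or more, the one that differed most between C1 and pan was Rela, a subunit of NF-kB, at -0.47 (limma adjusted p = 0.452), and the medians of the 10 genes were -0.18, -0.0026 and 0.13.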

How the data were processed

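The authors counted probes on the nCounter platform, normalized them in ROSALIND to housekeeping probes (geometric mean) and deposited log2 normalized counts for vehicle with pan and vehicle with C1, whose vehicle values were identical. RNA came from column extraction. The deposited fold change, p-value and mean columns hold the authors' own comparisons and were not used. Probe counts were recovered from the deposited log2 values, since 100% of normalized counts were within 0.01 of whole multiples of 1 step per sample. Of the gene IDs, 247 of 248 were found in RefSeq. No genome build is named, so no coordinates are given.

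For each pair of groups, limma 3.58.1 (R 4.3.3; lmFit, eBayes) was run on the deposited log2 values of all 248 genes, with no covariate, pseudocount or filter and with Benjamini-Hochberg adjustment. Exact permutation tests (difference of mean log2 values) and correlations (100000 resamples) used Python 3.11.15, numpy 2.4.6, scipy 1.17.1 and pandas 2.3.3, and figures matplotlib 3.10.9. P-values measure the spread between these samples only. Poisson intervals (95%) cover counting error. The fit was tested on simulated data.

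Members, lists and tests were chosen with earlier results of these data known. The genes named were the members, the macrophage genes, and, of the lists of activation and upstream genes, those with an adjusted p under 0.05 and, per comparison, the one with the largest absolute log2 fold change among those whose mean log2 value was 5 or more, plus the 3 genes most correlated with Arg1 above that level. Genes named beyond this rule (Il4, Il13, Hif1a, Mbl2, the neutrophil and T cell markers, examples of a list's members, the genes of alternative activation in pan replicate 1, Myl2, Nox1, Rps6ka5 and Areg) had been seen before they were chosen. Alternatives were no moderation, a mean-dependent prior variance, median centring, only genes with a mean log2 of at least 5, 10 normalized counts added, a floor of 20, subtraction of the mean of the 62 lowest genes (floor of 1), voom weights, all 3 groups in one fit, log2 total count as a covariate, leaving out each sample, the replicate number as a block and requiring a log2 fold change above 1.2. Subtraction of the genes of other organs was added after seeing the data.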

Additional observations from a re-analysis of the deposited data

Results flagged for a closer look

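Among the 6 groups of 4 samples tested for a sample far from the rest, 2 had one, both times pan replicate 1, the sample with the lowest total count. Chance marks about 1 in 20 such groups. Arg1 was 2772 normalized counts in pan replicate 1 and 3856 to 3953 in the other pan samples, so that the gap took 0.917 of the range of the group, above Dixon's 95% limit for 4 samples. Retnla was 74.65 normalized counts in pan replicate 1 and 11.6 to 16.4 in the others, a gap of 0.924 of the range. On the log2 scale the gaps were 0.930 for Arg1 and 0.815 for Retnla, the latter under the limit.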

How the results depend on the processing

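Of 168 values of Arg1, Nos2 and Retnla under the alternatives, 0 passed an adjusted p of 0.05 in limma, and the lowest adjusted p of Nos2 for pan against vehicle was 0.0878 (log2 total count as a covariate, log2 fold change -0.94). In 5 the sign turned. Arg1 for pan against vehicle was 0.04 without vehicle replicate 1 and 0.0541 without pan replicate 1. Retnla was -0.20 and -0.41 in the same settings, and -0.0794 for C1 against pan with a floor of 20 normalized counts. The r of Arg1 with the macrophage sum turned to -0.365 with each group centred and to -0.0687 without pan replicate 1. Leaving out 1 sample at a time gave, for pan against vehicle, -0.14 to 0.05 for Arg1, -1.06 to -0.66 for Nos2 and -0.41 to 0.74 for Retnla. For C1 against vehicle it gave 0.10 to 0.28, -0.69 to -0.29 and 0.17 to 1.11, and for C1 against pan 0.12 to 0.29, 0.19 to 0.55 and 0.10 to 0.99. The r with the macrophage sum then ran from -0.07 to 0.365 for Arg1, 0.286 to 0.554 for Nos2 and 0.0463 to 0.645 for Retnla. Genes called over the panel ran from 1 to 7 for pan against vehicle, 0 to 0 for C1 against vehicle and 0 to 1 for C1 against pan. Over all alternatives, pan against vehicle ran from -0.14 to 0.05 for Arg1, -1.31 to -0.36 for Nos2 and -0.41 to 1.46 for Retnla. In the same order, C1 against vehicle ran from 0.09 to 0.28, -0.90 to -0.28 and 0.10 to 1.67. C1 against pan ran from 0.10 to 0.29, 0.07 to 0.55 and -0.08 to 0.99.

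The 5 genes called for pan against vehicle became 2 without moderation and with the floor of 20, 1 among genes with a mean log2 of at least 5, 3 with the 62 lowest genes subtracted and 8 with the total count as a covariate. The 0 for C1 against vehicle became 2 with a mean-dependent prior variance, 4 among the higher genes and 1 with the lowest genes subtracted. The 1 for C1 against pan became 2 with the floor of 20 and 0 with a mean-dependent prior variance, median centring, 10 counts added, voom weights, all 3 groups in one fit or the covariate. The cause was not tested. Nos2 and Retnla have mean log2 values under 5 and gave no value under that filter.

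Same-numbered samples did not deviate together throughout (r from -0.05 to 0.57 over 131 genes) and the labels name no pairing, so the replicate number as a block is an alternative only. It gave -0.10, -1.02 and 0.32 for Arg1, Nos2 and Retnla with pan against vehicle, 0.18, -0.53 and 0.68 with C1 against vehicle and 0.24, 0.37 and 0.37 for C1 against pan, and 5, 0 and 1 genes called. Depth limits Nos2 and Retnla, which rest on 3 to 60 and 4 to 52 counts per sample. In pan replicate 1, 3 counts are worth 9.74 normalized counts.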
